A study of Drosophila melanogaster with 2 samples.

Results

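Chorion genes encode the proteins of the outer eggshell of *Drosophila melanogaster*, and 4 of them, Cp15, Cp19, Cp38 and Cp7Fa, are described here together with Femcoat, a further eggshell protein gene. The genes were picked by name from lists of transcripts that differed between ovaries of CG5508 mutants. They are 5 of the 80 features (genes, transposon insertions and strands of piRNA clusters) listed with uniquely mapped reads. The homozygous library came from ovaries of flies that carry z3-5967, which mutates CG5508 (minotaur), on both copies of the chromosome. The heterozygous library came from ovaries of z3-5967 heterozygotes, so the control flies carry the mutant allele as well. The strain labels spell the gene GC5508 and name no other allele. All flies were 3 to 5 days old and were kept at 25 °C. Each genotype was measured in a single library, so none of the differences could be set against the spread between replicates, and no p-value was computed.

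The eggshell is made by the follicle cells, the somatic layer around each growing egg. They secrete the vitelline membrane first and the chorion last, and the chorion genes are switched on in a fixed order within the final stages of oogenesis. To meet the demand, follicle cells copy a chorion gene cluster on the X chromosome and another on chromosome arm 3L many times over before and during transcription, a process called chorion gene amplification. Cp38 belongs to the early chorion genes, Cp19 to the middle ones and Cp15 to the late ones. No time within choriogenesis is assigned here to Cp7Fa or Femcoat.

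All 5 genes were listed as lower in homozygous ovaries, which follows from how they were picked. Among all 80 listed features 23, or 28.8%, were lower. The other 57 were higher. Since the genes were chosen from these lists, their values are a description. Parentheses after a ratio, fold or share give its exact 95% interval, computed from whole reads, which covers counting error only. In ovary RNA, fewer follicle cells at the chorion stages and less chorion RNA per cell cannot be told apart. Minotaur was in none of the lists, so its level gives no check of the genotype labels. The features of the uniquely mapped lists held 85648 homozygous and 67961 heterozygous reads. The homozygous size factor, recovered from the authors' normalized values, was 1.34 times the heterozygous one.

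The cluster on 3L holds 4 chorion genes, transcribed in the same direction in the order Cp18, Cp15, Cp19 and Cp16 within 5.81 kb of the dm6 build. Cp15 (FBgn0000355) lies from 8728481 to 8729066. It has 2 exons and encodes the shortest protein of the 5. Cp15 held 2670 normalized reads (3088 reads) in the homozygous library, against 6339 normalized reads (5481 reads) in the heterozygous library. The homozygous over heterozygous ratio was 0.421 (0.403 to 0.440), a level 2.37-fold lower (2.27 to 2.48). This late gene had the smallest difference of the 5.

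Cp19 (FBgn0000358), the next gene downstream of Cp15, lies from 8729865 to 8730604 on 3L, after a gap of 798 bases. It has 2 exons and encodes 173 residues. Cp19 held 188 normalized reads (217 reads) in the homozygous library, against 1705 normalized reads (1474 reads) in the heterozygous library. Its ratio was 0.110 (0.0950 to 0.127), a level 9.08-fold lower (7.87 to 10.5). This middle gene had the largest difference of the 5. The ratio of Cp15 was 3.83 times that of its neighbour Cp19 (3.29 to 4.46), a comparison that does not depend on the scaling between libraries. Within the reads of this pair, Cp19 made up 6.57% in the homozygous library (5.74 to 7.46) and 21.2% in the heterozygous library (20.2 to 22.2). Genes less than 1 kb apart in the same amplified cluster thus differed in the size of their fall by more than counting error.

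The outer genes of the 3L cluster, Cp18 and Cp16, were in none of the lists. Cp18 is known as a late gene like Cp15, and Cp16 as a middle gene like Cp19. Levels of genes outside the lists were not analysed here, so Cp18 and Cp16 cannot be called unchanged. No uniquely mapped feature listed as lower had a difference under 2.11-fold.

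**Figure D1:**
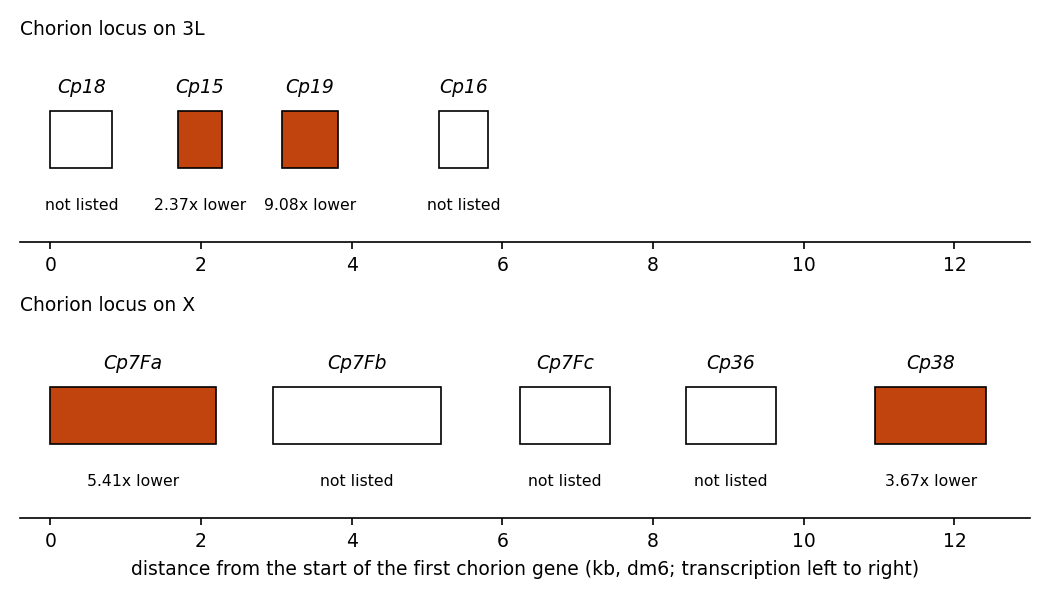
Maps of the chorion clusters on 3L (top) and X (bottom), with the distance from the start of the first chorion gene in kb on the horizontal axis. Filled boxes are genes listed as lower in the homozygous library, with the fold below them, and open boxes are genes in none of the lists. In each cluster 2 genes were listed, neighbours on 3L (2.37-fold and 9.08-fold lower) and the outermost genes on X (5.41-fold and 3.67-fold lower).

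The X cluster holds 5 chorion genes within 12.42 kb, transcribed in the order Cp7Fa, Cp7Fb, Cp7Fc, Cp36 and Cp38. The first and the last of them were listed. Cp38 (FBgn0000360) lies from 8481837 to 8483311 on X, has 2 exons and encodes a protein of 306 residues. Cp38 held 1521 normalized reads (1759 reads) in the homozygous library, against 5585 normalized reads (4829 reads) in the heterozygous library. Its ratio was 0.272 (0.258 to 0.288), a level 3.67-fold lower (3.48 to 3.88). In the size of its fall, this early gene lay between late Cp15 and middle Cp19. Each time is represented by a single listed gene, and whether falls of chorion genes follow their timing was not tested.

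Cp7Fa (FBgn0014464), from 8470888 to 8473087 on X, has 4 exons and encodes 293 residues in the listed transcript that dm6 also holds, FBtr0100003. It was the scarcest of the 5. Cp7Fa held 77.8 normalized reads (90 reads) in the homozygous library, against 421 normalized reads (364 reads) in the heterozygous library. The ratio was 0.185 (0.145 to 0.233), a level 5.41-fold lower (4.28 to 6.89). The ratio of Cp38 was 1.47 times that of Cp7Fa (1.16 to 1.89). Within the reads of these X genes, Cp7Fa made up 4.87% in the homozygous library (3.93 to 5.95) and 7.01% in the heterozygous library (6.33 to 7.74).

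Between Cp7Fa and Cp38 lie Cp7Fb, Cp7Fc and Cp36, an early gene like Cp38. None of them was listed. In dm6 the gene CG33223 overlaps all 5 chorion genes of the X cluster on the opposite strand. It was in none of the lists, and the sources used here do not say whether reads were counted by strand. Reads of CG33223 among those of Cp7Fa and Cp38 can therefore not be told apart. No annotated gene overlapped Cp15 or Cp19.

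The summed reads of the listed pair were lower at each cluster. The 3L pair held 2858 normalized reads in homozygous and 8043 in heterozygous ovaries, 2.81-fold lower (2.70 to 2.93). The X pair held 1599 normalized reads in homozygous and 6006 in heterozygous ovaries, 3.76-fold lower (3.56 to 3.96). The ratio of the 3L pair was 1.33 times that of the X pair (1.25 to 1.43). Most reads of the 3L pair were of Cp15 and most of the X pair were of Cp38, so these sums follow those genes. The spread within the 3L pair was wider than the difference between the clusters.

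Femcoat (FBgn0041252) encodes an eggshell protein needed for a normal chorion, and lies on X from 4241887 to 4242826, outside the amplified X cluster. It is transcribed from the minus strand, has 2 exons and encodes 201 residues. Femcoat held 142 normalized reads (164 reads) in the homozygous library, against 493 normalized reads (426 reads) in the heterozygous library. Its ratio was 0.288 (0.239 to 0.345), a level 3.47-fold lower (2.89 to 4.19). The ratio of Femcoat was 1.06 times that of Cp38 (0.870 to 1.28), so these genes could not be separated at this depth. It was 1.56 times that of Cp7Fa (1.15 to 2.11) and 2.61 times that of Cp19 (2.06 to 3.31). The ratio of Cp15 was 1.46 times that of Femcoat (1.21 to 1.77). Any part of the clusters in these differences was not tested. The other gene listed as lower nearest to Femcoat was CG15570, 18.6 kb away, with 0 protein-coding genes lying wholly between them. CG15570 held 65.7 normalized reads in homozygous and 317 in heterozygous ovaries. For Cp15 and Cp19 the nearest other lower gene was over 221 kb away.

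**Figure D2:**
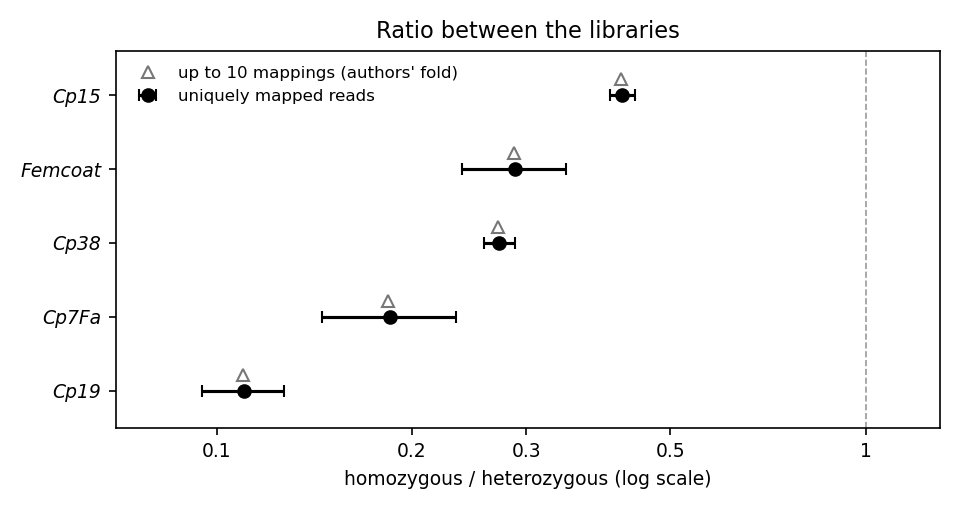
Ratio of homozygous over heterozygous normalized reads for each gene on a log axis, with exact 95% counting intervals (bars) for uniquely mapped reads and the authors' fold, inverted, for up to 10 mappings per read (triangles). The dashed line marks equal levels. The points run from 0.110 for Cp19 to 0.421 for Cp15, and every interval lies under 1.

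Of the 10 pairs among the 5 genes, 9 had a ratio of ratios whose counting interval lay above 1. The pair of Femcoat and Cp38 was the exception. The order from the smallest to the largest fall was Cp15, Femcoat and Cp38 together, Cp7Fa, and Cp19. Cp7Fa stood apart from Femcoat by a factor of 1.56 (1.15 to 2.11) and from Cp19 by a factor of 1.68 (1.26 to 2.22). These intervals compare the 2 libraries and not the genotypes, since the spread between libraries of the same genotype is not known.

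Levels of different genes were compared per kilobase of the listed transcript, with exon lengths of 515 bases for Cp15, 651 for Cp19, 1249 for Cp38, 1033 for Cp7Fa and 833 for Femcoat in dm6. The order was the same in each library. Cp15 was highest, with a level of 5185 normalized reads per kb in homozygous and 12308 in heterozygous ovaries. Cp38 followed at a level of 1218 normalized reads per kb in homozygous and 4471 in heterozygous ovaries. Cp19 had 288 normalized reads per kb in homozygous and 2618 in heterozygous ovaries. Femcoat had 170 normalized reads per kb in homozygous and 591 in heterozygous ovaries. Cp7Fa was lowest, at 75.3 normalized reads per kb in homozygous and 408 in heterozygous ovaries. Neighbours in this order had counting intervals that did not overlap in either library. The intervals do not cover an uneven spread of reads along transcripts, or exon lengths that differ between dm6 and the authors' build, dm3. Neither was examined. The distance between the highest and the lowest level was 68.8-fold in homozygous and 30.2-fold in heterozygous ovaries.

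**Figure D3:**
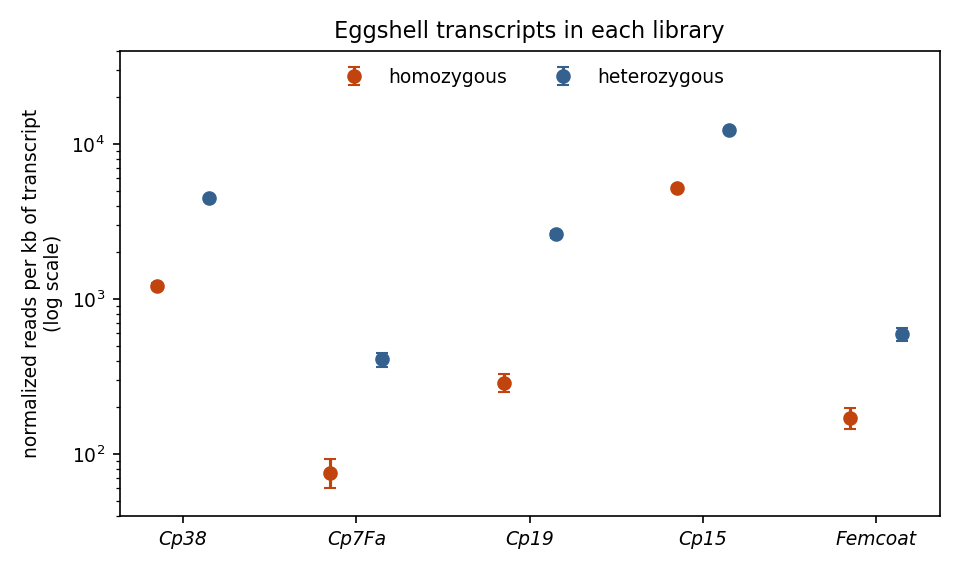
Level of each gene in normalized reads per kb of transcript on a log axis, for the homozygous and the heterozygous library, with exact 95% counting intervals as bars. The homozygous points lie under the heterozygous ones for every gene, and Cp19 at 288 against 2618 shows the widest gap.

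The make-up of the reads of the 5 genes differed between the libraries. Together they held 4598 normalized reads (5318 reads) in homozygous and 14541 normalized reads (12574 reads) in heterozygous ovaries, 3.16-fold lower (3.06 to 3.27). Cp15 made up 58.1% of these reads in the homozygous library (56.7 to 59.4) and 43.6% in the heterozygous library (42.7 to 44.5). Cp19 made up 4.08% in the homozygous library (3.56 to 4.65) and 11.7% in the heterozygous library (11.2 to 12.3). Cp38 made up 33.1% in the homozygous library (31.8 to 34.4) and 38.4% in the heterozygous library (37.6 to 39.3). Among the reads of these 5 genes, the late gene Cp15 thus had a larger share in homozygous ovaries and the early Cp38 and middle Cp19 had smaller shares. The other chorion genes are not part of this total. Cp7Fa made up 1.69% in the homozygous library (1.36 to 2.08) and 2.89% in the heterozygous library (2.61 to 3.20). Femcoat made up 3.08% in the homozygous library (2.64 to 3.58) and 3.39% in the heterozygous library (3.08 to 3.72), intervals that overlap.

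**Figure D4:**
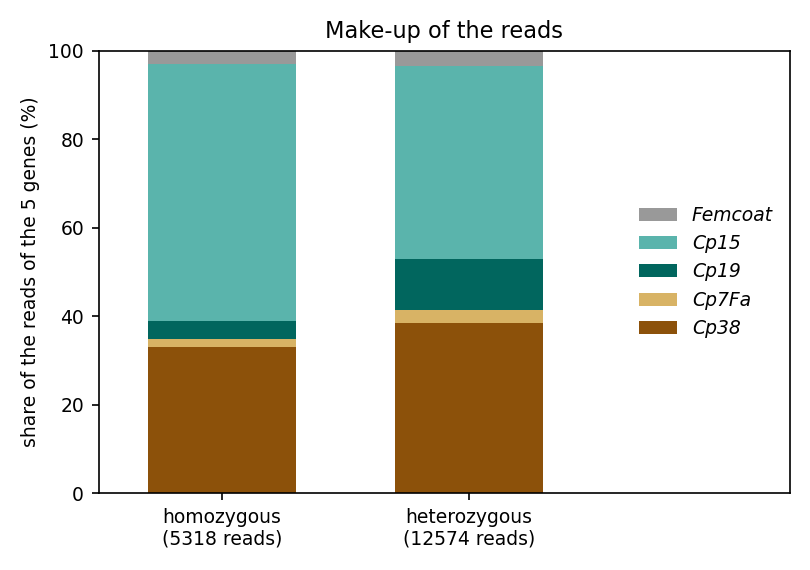
Share of each gene in the reads of the 5 genes, in percent, for the homozygous library (left) and the heterozygous library (right). Cp15 fills 58.1% of the homozygous and 43.6% of the heterozygous bar, and Cp19 4.08% and 11.7%.

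Cp38 was the only one of the 5 with entries of different values. The lists hold it as a short and a long transcript, which share their coding sequence and differ at the 3′ end, where the long one runs on for 137 bases in dm6 (X, 8483175 to 8483311). The short entry held 1358 normalized reads (1570 reads) in the homozygous library, against 5306 normalized reads (4588 reads) in the heterozygous library, and was 3.91-fold lower (3.69 to 4.14). Reads counted for the long entry alone came to 189 in homozygous and 241 in heterozygous ovaries. After scaling these were 163 normalized reads in homozygous and 279 in heterozygous ovaries, 1.71-fold lower (1.40 to 2.07). The ratio of the 3′ extension was 2.29 times that of the short entry (1.87 to 2.81). The extension made up 10.7% of the reads of the long entry in the homozygous library (9.34 to 12.3) and 4.99% in the heterozygous library (4.39 to 5.64). CG33223 overlaps Cp38 on the opposite strand. Whether it reaches the extension was not examined, and its part in these reads was not tested. Cp7Fa was listed with 2 transcripts of identical values, which were counted once.

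In the authors' deposited table, the adjusted p-values were 5.5e-14 for Cp19, 3.83e-06 for Cp38, 0.000281 for Cp7Fa, 0.0116 for Femcoat and 0.0142 for Cp15. They rest on 1 library per genotype. Cp15, with the most reads of the 5, had the largest adjusted p-value in the authors' deposited table and the smallest fold.

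Counting reads with up to 10 mappings left the genes nearly as they were. All 5 were again in the lower list, where 7.22% of the 291 listed features were lower. The per-library columns of these lists have headers that match neither sample. That their fold and p-value columns describe these libraries rests on the names of the lists and was not tested. The authors' deposited table gave a heterozygous over homozygous fold of 9.12 for Cp19, 5.45 for Cp7Fa, 3.68 for Cp38, 3.49 for Femcoat and 2.38 for Cp15. Taken here as a difference of the log2 folds of the authors' deposited table, heterozygous over homozygous, the value with up to 10 mappings was higher by the same 0.00585 for Cp15, Cp19 and Femcoat. It was higher by 0.00421 for Cp38 and by 0.00981 for Cp7Fa.

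Genes of the eggshell were looked up in a fixed list of 26, which includes the 5 described here and need not be complete. Whether lower features outside that list are also eggshell genes was not examined. Of the 9 chorion genes 4 were listed, all lower. Of 17 further eggshell genes, for vitelline membrane proteins and for the modification of the eggshell, 1 was listed as lower, Femcoat, and 0 as higher. No member of 4 lists was in any deposited list. These were the 17 genes of chorion gene amplification, such as those of the origin recognition complex, the 8 chorion gene regulators, the 10 follicle cell markers and the 4 genes for yolk proteins and their receptor. The same held for the 11 germline markers. Their levels were not analysed here.

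Some markers of other tissues were listed as higher, as were 57 of all 80 listed features. The markers that were not listed have no level here. Of 11 fat body markers 4 were listed as higher, the larval serum protein genes Lsp1alpha, Lsp1beta and Lsp2 and the receptor gene Fbp1, with a summed level of 727 normalized reads in homozygous and 49.7 in heterozygous ovaries. Of 22 muscle markers 5 were higher with uniquely mapped reads, Act87E, Mlc2, Msp-300, bt and sls. Their summed level was 6935 normalized reads in homozygous and 2610 in heterozygous ovaries. With up to 10 mappings, 4 of the 22 were listed as higher. Of 10 hemocyte markers 2 were higher, the collagen gene Cg25C and Ppn, with a summed level of 1212 normalized reads in homozygous and 380 in heterozygous ovaries. The part of these tissues in the lower eggshell values was not tested.

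Among the 23 lower features, the 5 eggshell genes ranked 3rd (Cp19), 6th (Cp7Fa), 11th (Cp38), 12th (Femcoat) and 19th (Cp15) by fold. Their median was 3.67-fold lower, against 3.21-fold for the 18 other lower features and 3.47-fold for all 23. The features with larger falls than Cp19, CG43163 and tipE, held 77.5 and 116 normalized heterozygous reads, far under the 1705 of Cp19. Of the 21 lower protein-coding genes, the 5 held 38.5% of the reads in the homozygous library (37.7 to 39.3) and 44.1% in the heterozygous library (43.5 to 44.6). By the difference in log2 ratio over the 2 libraries, the genes most like the median of the 5 were CG13083, CG31926 and CG13114. CG13083 was also the nearest to Femcoat and to Cp38, with 514 normalized reads in homozygous and 1766 in heterozygous ovaries, a log2 ratio of −1.78. Nearest to Cp15 was CG14309, at a log2 ratio of −1.24 against −1.25 for Cp15. CG31661 was the nearest to Cp19, at −2.90 against −3.18, and CG15570 the nearest to Cp7Fa, at −2.27 against −2.44.

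**Figure D5:**
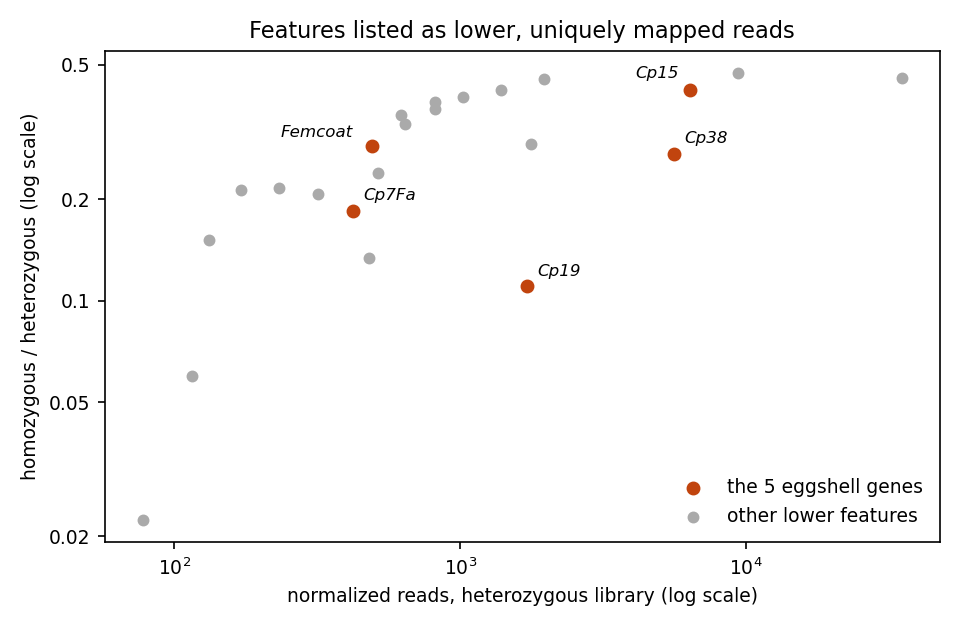
Ratio of homozygous over heterozygous normalized reads against the heterozygous level for the 23 features listed as lower with uniquely mapped reads, both axes on a log scale. The 5 eggshell genes are marked. Cp19 at 0.110 lies under all other features with a heterozygous level above that of Femcoat.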

How the data were processed

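RNA of ovaries was sequenced in 1 homozygous and 1 heterozygous library. Per the labels' protocols, total RNA was primed with the not-so-random primer set, which lacks primers matching ribosomal RNA, so reads need not be spread evenly along a transcript. Per the submitters' processing notes, the tools were DESeq 1.8.2, bedtools, Bowtie 0.12.8 and TopHat 1.4.1 and the build dm3, with no roles stated. The authors deposited lists of called features only. Their signal values are normalized reads per library and as a mean, per the file headers. The fold column is a ratio and the log2 column its log2, per the file headers, which give no direction. The direction, heterozygous over homozygous, was read from the per-library values of the uniquely mapped lists. The lists with up to 10 mappings were taken to have the same direction. The p-values, raw and adjusted, are the authors' own.

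All 143 values of each library in the uniquely mapped lists were whole multiples of 0.865 (homozygous) and 1.16 (heterozygous) normalized units, within 0.001 read, and reads were recovered by division. Ratios were inverted to homozygous over heterozygous. Their intervals are exact conditional binomial ones, those of shares Clopper-Pearson and those between genes conditional odds ratios (scipy 1.17.1). The intervals of ratios and those between genes were tested on simulated reads with counting error only. Those of shares were not. A gene was represented by its entry with the highest mean. A further 4 columns of per-library values, in the lists of reads with up to 10 mappings, were left out because their headers match neither sample. The mean, fold and p-value columns of the same lists were used. Positions came from Ensembl release 115 (dm6), matched by FlyBase identifier for 5 of 5 genes. The number of features the authors tested is not stated by the sources used here, so the share of lower features is that among listed ones. The text names the 5 genes, the lower genes nearest to them in log2 ratio or position, members of fixed lists, and CG43163 and tipE, chosen after their values were seen. The genes and lists were chosen with earlier results of these data known. The comparisons of the Cp38 entries and of the summed clusters were added after the values were seen.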

Additional observations from a re-analysis of the deposited data

How the results depend on the processing

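No paired analysis was possible because the genotypes have a single library each, and for the same reason no library could be left out. All 5 genes stayed lower in the homozygous library under every alternative run. As they were picked from the lower lists and the runs use the same 2 libraries, this is no independent support. Leaving out the authors' size factors raises every homozygous over heterozygous ratio by the same factor of 1.34. The ratios were then 0.563 for Cp15, 0.147 for Cp19, 0.364 for Cp38, 0.247 for Cp7Fa and 0.385 for Femcoat, each outside its counting interval. The short entry of Cp38 gave 0.256. A pseudocount of 1 or 10 and reads with up to 10 mappings kept all 5 ratios within their intervals. At an adjusted p-value below 0.01 by the authors' deposited table, the number of listed genes was 3 in place of 5, and at 4-fold or more it was 2, which follows from the stricter thresholds. All 10 ratios of ratios stayed within their intervals with a pseudocount of 10 on the reads and with up to 10 mappings. Taken per kilobase, 9 of 10 shares moved outside their intervals, and Cp15 then made up 74.7% of the homozygous and 60.3% of the heterozygous reads per kilobase. Without Femcoat 3 of 8 shares moved. Depth limits Cp7Fa most, with 90 homozygous reads.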
